A study of Mus musculus with 12 samples.

Results

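The genes described here are 9 grouped as triglyceride synthesis enzymes, namely Gpd1, Gpam, Agpat2, Agpat3, Lpcat3, Mogat1, Mogat2, Dgat1 and Dgat2. They were chosen by symbol, as steps before and after the reaction that lipin 1 catalyzes, and the rule uses no measured value. Lpcat3 is counted with them although it encodes an acyltransferase of lysophospholipids. All 9 are among the 22456 genes with an expression value in liver RNA-Seq of 12 male mice aged 2 to 8 months. The animals were Lpin1-/- mice, which carry the fatty liver dystrophy (fld) allele of Lpin1 in every tissue, and wild-type Lpin1+/+ littermates, all on the BALB/cByJ background. Each genotype was sampled after a 16-hour fast in single housing, or after the same fast followed by 5 hours of refeeding with chow, with 3 mice in each of the 4 groups. Refed livers were therefore taken 5 hours later after the start of the fast, and feeding and elapsed time cannot be told apart.

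In the glycerol phosphate pathway, glycerol-3-phosphate is acylated to lysophosphatidic acid and then to phosphatidic acid. Lipin proteins dephosphorylate phosphatidic acid to diacylglycerol, and a diacylglycerol acyltransferase adds the last fatty acid to form triglyceride. A second route reaches diacylglycerol from monoacylglycerol and does not need lipin. In liver, triglyceride is stored in lipid droplets or secreted in very low-density lipoprotein, and fasting brings a large supply of fatty acids from adipose tissue.

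Values are RPKM, that is, read counts scaled to the length of the transcript and to the depth of the library, so that levels of different genes can be set side by side. Differences were tested with limma on log2(RPKM + 1) in the 11507 genes whose average reached 0.5 RPKM, in one fit of the 4 groups, and were called at a Benjamini-Hochberg adjusted p under 0.05. Of the 9 members, 8 were tested, and Mogat2 fell below the minimum. Log2 differences are on the log2(RPKM + 1) scale and understate changes of low genes. Relative sequencing depth, read from the steps between low values, ranged from 0.868 to 1.159 of the median library. Lpin1 itself was at 22, 0.726 and 1.76 RPKM in fasted Lpin1+/+ liver and at 2.92, 0.784 and 2.76 RPKM in refed Lpin1+/+ liver. It was at 0.0597, 0.0566 and 0.0368 RPKM in fasted and at 0.00573, 0.0238 and 0.00962 RPKM in refed Lpin1-/- liver. All Lpin1-/- livers were below all Lpin1+/+ livers in Lpin1, and the first fasted Lpin1+/+ liver was far above the others of its group. With this spread the genotype difference of Lpin1 was -2.19 (SE 0.72, limma adjusted p = 0.0562) in fasted and -1.55 (SE 0.72, limma adjusted p = 0.232) in refed liver.

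Markers of hepatocytes were high in each library, at a summed level of 34900 to 78100 RPKM for the 9 of 10 markers listed. The sum of 9 Kupffer cell and macrophage markers was 823 RPKM in replicate 1 of fasted Lpin1-/- liver and 780 RPKM in replicate 2 of refed Lpin1+/+ liver, against 93.0 to 416 RPKM in the other libraries. Of these sums C1qa and C1qb held 341 and 234 RPKM in the former library and 249 and 211 RPKM in the latter. Not every marker followed. Clec4f was at 32.4 RPKM in the latter, beside 37.7 and 22.6 RPKM in its group. Csf1r was at 7.41 RPKM in the former, beside 11.3 RPKM in replicate 1 of fasted Lpin1+/+ liver. Replicate 1 of fasted Lpin1-/- liver also had the highest sum of 5 biliary markers, 451 RPKM against 19.2 to 103 RPKM elsewhere. Spp1 alone was at 430 RPKM there. Epcam, Krt19 and Krt7 were also highest in that library, at 10.8, 5.51 and 2.29 RPKM. Sox9 was not, at 2.48 RPKM against 2.89 RPKM in replicate 1 of fasted Lpin1+/+ liver. Sums ranged from 94.9 to 414 RPKM for 7 stellate cell markers, from 19.3 to 54.9 RPKM for 6 endothelial markers and from 236 to 1940 RPKM for 6 blood cell markers. Of 8 adipocyte markers only Cidec and Fabp4, which liver can also express, reached a mean of 0.5 RPKM. Their list summed to 73.6 to 106 RPKM in fasted Lpin1-/- liver and to 14.7 to 26.7 RPKM in fasted Lpin1+/+ liver, while Adipoq stayed at or below 0.243 RPKM and Lep was at 0 in each library. Of 6 enterocyte markers only Fabp2 and Apoa4 reached that mean, and of 6 pancreatic acinar markers only Cela1 did (sums of 718 to 5160 and of 6.12 to 40.3 RPKM). Fewer cells of a type and less RNA per cell cannot be told apart in these bulk samples.

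Gpd1 was the member that differed most. It encodes the cytosolic glycerol-3-phosphate dehydrogenase, which makes glycerol-3-phosphate from dihydroxyacetone phosphate. In GRCm38 it lies at chr15:99717515-99725005 on the plus strand. Gpd1 was at 130, 103 and 172 RPKM in fasted Lpin1+/+ liver and at 17.3, 25.8 and 18.9 RPKM in fasted Lpin1-/- liver. After refeeding it was at 191, 110 and 167 RPKM in Lpin1+/+ and at 80.0, 156 and 134 RPKM in Lpin1-/- liver. The 3 fasted Lpin1-/- livers were below each of the other 9 livers, which overlapped among their groups.

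In fasted liver the mean of Gpd1 was 20.7 ± 4.52 RPKM in Lpin1-/- and 135 ± 34.7 RPKM in Lpin1+/+ mice (SD, n = 3 each), or 6.53-fold lower. The log2 difference was -2.64 (SE 0.30, limma adjusted p = 0.000405). Refeeding raised Gpd1 in Lpin1-/- liver 5.96-fold, by 2.49 on the log2 scale (SE 0.30, limma adjusted p = 0.000689). In Lpin1+/+ liver the feeding difference was 0.20 (SE 0.30, limma adjusted p = 0.809), and between genotypes in refed liver it was -0.35 (SE 0.30, limma adjusted p = 0.523). The test of the difference itself gave an interaction of 2.29 (SE 0.42, limma adjusted p = 0.0316). That call was lost under 10 of 18 alternatives, including 7 of the 12 in which 1 library was left out, with adjusted p from 0.0156 to 0.112 and a value from 1.94 to 2.57. The fasted genotype difference and the feeding difference in Lpin1-/- liver were called under each of 19 alternatives, and without the 2 libraries with high macrophage markers the fasted difference was -2.53 (limma adjusted p = 0.00113).

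**Figure D1:**
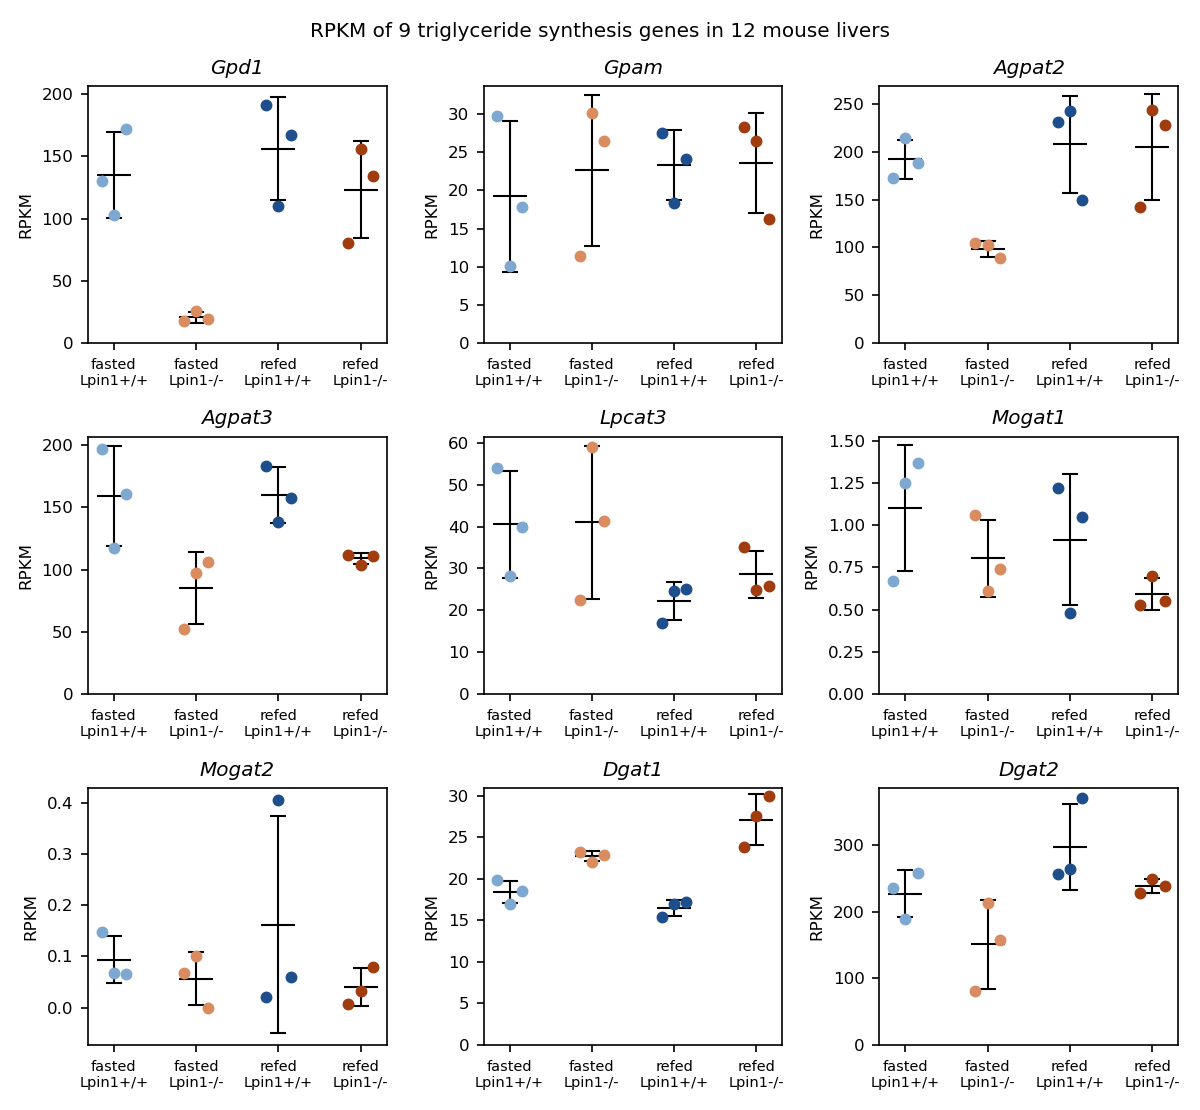
RPKM of the 9 members (1 panel each, with its own axis in RPKM) in the 4 groups of 3 livers. Points are livers in the order of their replicate number, horizontal bars are means and error bars are SD. Gpd1 and Agpat2 in fasted Lpin1-/- liver lie below all other livers, Dgat1 is higher in Lpin1-/- than in Lpin1+/+ liver in both states, and Mogat2 stays at or below 0.406 RPKM.

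Gpam encodes the mitochondrial glycerol-3-phosphate acyltransferase, which adds the first fatty acid, and lies at chr19:55067268-55127238 on the minus strand. It was at 29.7, 10.1 and 17.8 RPKM in fasted Lpin1+/+ and at 11.4, 30.1 and 26.5 RPKM in fasted Lpin1-/- liver. In refed liver it was at 27.5, 18.4 and 24.1 RPKM in Lpin1+/+ and at 28.3, 26.5 and 16.2 RPKM in Lpin1-/- mice. All 4 groups overlapped, with means of 19.2 to 23.6 RPKM and no difference past the threshold. The log2 difference between genotypes was 0.24 (SE 0.41, limma adjusted p = 0.722) in fasted liver and -0.00 (SE 0.41, limma adjusted p = 0.998) in refed liver.

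Gpam was not the most abundant transcript of its step. Gpat4, an acyltransferase of the endoplasmic reticulum that catalyzes the same reaction, was at 90.8, 66.1 and 84.4 RPKM in fasted Lpin1+/+ and at 198, 260 and 279 RPKM in fasted Lpin1-/- liver. In refed liver Gpat4 was at 59.6, 51.2 and 60.6 RPKM in Lpin1+/+ and at 313, 174 and 177 RPKM in Lpin1-/- mice. All Lpin1-/- livers were above all Lpin1+/+ livers in Gpat4. Its genotype difference was 1.6 (SE 0.25, limma adjusted p = 0.00167) in fasted and 1.88 (SE 0.25, limma adjusted p = 0.0021) in refed liver. Gpam therefore made up 22.6%, 11.5% and 15.6% of the summed RPKM of the 4 enzymes of this step (Gpam, Gpat2, Gpat4 and Gpat3, listed as Agpat9) in fasted Lpin1+/+ liver. In fasted Lpin1-/- liver its share was 5.23%, 9.80% and 8.31%. After refeeding the share was 28.9%, 23.3% and 26.2% in Lpin1+/+ and 8.06%, 12.6% and 7.98% in Lpin1-/- liver. The shares of the genotypes did not overlap in either state. The summed RPKM of the step was 111 ± 22 in Lpin1+/+ and 281 ± 55.1 in Lpin1-/- fasted liver, and 88.9 ± 8.53 and 255 ± 83.6 in refed liver (SD, n = 3 each). These shares are a description and were not tested.

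Agpat2 and Agpat3 encode acyltransferases that add the second fatty acid and form phosphatidic acid, the substrate of lipin 1. Agpat2, the gene mutated in a form of inherited lipodystrophy, lies at chr2:26593057-26604417 on the minus strand. It was at 173, 214 and 188 RPKM in fasted Lpin1+/+ liver and at 105, 102 and 89.3 RPKM in fasted Lpin1-/- liver. After refeeding it was at 231, 243 and 150 RPKM in Lpin1+/+ and at 142, 244 and 228 RPKM in Lpin1-/- mice. Fasted Lpin1-/- livers were below all other livers, and the other 3 groups overlapped. Agpat2 was 1.95-fold lower in fasted Lpin1-/- than in fasted Lpin1+/+ liver (log2 difference -0.95, SE 0.25, limma adjusted p = 0.0203). Refeeding raised it 2.08-fold in Lpin1-/- liver (1.01, SE 0.25, limma adjusted p = 0.0152). The feeding difference was 0.09 (SE 0.25) in Lpin1+/+ liver, and the interaction, 0.92 (SE 0.35), had a limma adjusted p of 0.201, so a difference between genotypes in the response to feeding was not shown. When each library was rescaled by its median ratio, the fasted genotype difference was -0.75 (limma adjusted p = 0.0921) and the feeding difference 0.65 (limma adjusted p = 0.153), both no longer called. Each was also lost when 1 of several libraries of the groups compared was left out, with a limma adjusted p of up to 0.0654 and 0.0715.

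Agpat3 acts in the endoplasmic reticulum and Golgi and lies at chr10:78269178-78352489 on the minus strand. It was at 197, 117 and 161 RPKM in fasted Lpin1+/+ and at 52.4, 97.4 and 106 RPKM in fasted Lpin1-/- liver. In refed liver it was at 183, 138 and 158 RPKM in Lpin1+/+ and at 112, 104 and 111 RPKM in Lpin1-/- mice. The highest Lpin1-/- liver, at 112 RPKM, was below the lowest Lpin1+/+ liver, at 117 RPKM. The genotype difference was -0.92 (SE 0.27, limma adjusted p = 0.0360) in fasted liver and -0.54 (SE 0.27, limma adjusted p = 0.270) in refed liver. Only the first passed the threshold, and the interaction was 0.38 (SE 0.38, limma adjusted p = 0.603). The fasted call was lost under 9 of 19 alternatives, and without the 2 libraries with high macrophage markers the difference was -0.61 (limma adjusted p = 0.102). Together, Agpat2 and Agpat3 made up the bulk of their step. Over Agpat1 to Agpat5 the summed RPKM was 362 ± 20.3 in Lpin1+/+ and 203 ± 18.5 in Lpin1-/- fasted liver, and 388 ± 55.6 and 335 ± 53.5 in refed liver (SD, n = 3 each). Agpat5 was higher in fasted Lpin1-/- liver, with a difference of 1.02 (SE 0.21, limma adjusted p = 0.0071), and the low Agpat4 differed by 0.43 without passing the threshold (SE 0.20, limma adjusted p = 0.160). For Agpat5 its share of the step in fasted liver lay between 1.87% and 2.32% in Lpin1+/+ mice and between 5.81% and 12.6% in Lpin1-/- mice.

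Lpcat3, at chr6:124663027-124704418 on the plus strand, encodes a lysophospholipid acyltransferase that places polyunsaturated fatty acids into phosphatidylcholine and is a target of liver X receptors. It was at 53.9, 28.3 and 39.8 RPKM in fasted Lpin1+/+ and at 22.5, 59.0 and 41.3 RPKM in fasted Lpin1-/- liver. After refeeding it was at 16.9, 24.7 and 25.1 RPKM in Lpin1+/+ and at 35.1, 24.9 and 25.7 RPKM in Lpin1-/- mice. The groups overlapped except that each refed Lpin1+/+ liver was below each fasted one. That feeding difference, -0.82 (SE 0.34), had a limma adjusted p of 0.302, and no other difference of Lpcat3 passed the threshold.

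Mogat1 and Mogat2 encode monoacylglycerol acyltransferases of the route that does not use lipin. Mogat1, at chr1:78510991-78538173 on the plus strand, was at 0.671, 1.25 and 1.37 RPKM in fasted Lpin1+/+ and at 1.06, 0.610 and 0.742 RPKM in fasted Lpin1-/- liver. In refed liver it was at 1.22, 0.478 and 1.05 RPKM in Lpin1+/+ and at 0.525, 0.699 and 0.553 RPKM in Lpin1-/- mice. The genotype difference was -0.21 (SE 0.20, limma adjusted p = 0.503) in fasted and -0.25 (SE 0.20, limma adjusted p = 0.503) in refed liver, with overlapping groups.

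Mogat2, best known from the small intestine, lies on the same strand of chromosome 7 as Dgat2, at chr7:99219084-99238619. It was at 0.147, 0.0682 and 0.0666 RPKM in fasted Lpin1+/+, at 0.0680, 0.101 and 0 RPKM in fasted Lpin1-/-, at 0.0212, 0.406 and 0.0592 RPKM in refed Lpin1+/+ and at 0.00792, 0.0328 and 0.0798 RPKM in refed Lpin1-/- liver. Multiplied by the relative depth of each library, these values are whole multiples of the lowest one above 0. For the values of few reads the distance from a whole multiple rounds to 0.0. If the lowest one above 0 is 1 read, the values stand for 0 to 16 reads per library, other than 48 reads in replicate 2 of refed Lpin1+/+ liver, 1 of the 2 libraries with high macrophage markers. The link between these was not tested. Of the enterocyte markers Cdx1 was at 0 in every library, and Sis was at 0 in all but replicate 2 of refed Lpin1+/+ liver, where it was at 0.00466 RPKM. In that library Cdx2 was at 0, Vil1 at 0.0636, Fabp2 at 461 and Apoa4 at 2000 RPKM. Vil1 reached 0.0999, Fabp2 865 and Apoa4 4590 RPKM in other libraries. No difference of Mogat2 was tested in the main fit, since its mean was below the minimum of 0.5 RPKM.

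Dgat1 and Dgat2 encode the unrelated acyltransferases that form triglyceride from diacylglycerol. Dgat1, at chr15:76502015-76511953 on the minus strand, was at 19.8, 17 and 18.5 RPKM in fasted Lpin1+/+ and at 23.2, 22 and 22.8 RPKM in fasted Lpin1-/- liver. After refeeding it was at 15.4, 17 and 17.2 RPKM in Lpin1+/+ and at 23.8, 27.6 and 29.9 RPKM in Lpin1-/- mice. All Lpin1-/- livers were above all Lpin1+/+ livers. The difference was called in refed liver, where Dgat1 was 1.64-fold higher in Lpin1-/- mice (0.68, SE 0.15, limma adjusted p = 0.0208). In fasted liver it was 0.29 (SE 0.15, limma adjusted p = 0.198), and the interaction was 0.39 (SE 0.21, limma adjusted p = 0.346). The refed call was lost in 5 of the 12 fits that left out 1 library, with a value of 0.61 to 0.70 and a limma adjusted p of up to 0.107 there.

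Dgat2, the member with the highest mean level (228 RPKM over 12 livers), lies at chr7:99153658-99182719 on the minus strand. It was at 235, 189 and 258 RPKM in fasted Lpin1+/+ and at 80.8, 213 and 158 RPKM in fasted Lpin1-/- liver. In refed liver it was at 256, 264 and 371 RPKM in Lpin1+/+ and at 228, 249 and 239 RPKM in Lpin1-/- mice. The genotypes overlapped in fasted liver only, and no difference passed the threshold. The values nearest to it were 0.77 for feeding in Lpin1-/- liver (SE 0.31, limma adjusted p = 0.0977) and -0.69 for genotype in fasted liver (SE 0.31, limma adjusted p = 0.145). With 1 library left out they ranged from 0.38 to 1.07 and from -0.99 to -0.30, and the first passed the threshold without replicate 2 of fasted Lpin1-/- liver (limma adjusted p = 0.0384). Replicate 1 of fasted Lpin1-/- liver, with high sums of macrophage and biliary markers, was the lowest of the 12 libraries for Gpd1, Agpat3 and Dgat2. The part of these markers in the values was not tested.

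In fasted liver the Lpin1-/- mean was 1.23 times the Lpin1+/+ mean for Dgat1 and 0.663 times for Dgat2. In refed liver it was 1.64 and 0.804 times, and of these differences only that of Dgat1 in refed liver was called. The ratio of Dgat2 to Dgat1 RPKM differed by genotype. Dgat2 was 11.9, 11.1 and 14.0 times Dgat1 in fasted Lpin1+/+ and 3.48, 9.70 and 6.94 times Dgat1 in fasted Lpin1-/- liver. In refed liver the ratio was 16.6, 15.6 and 21.6 in Lpin1+/+ and 9.57, 9.03 and 7.99 in Lpin1-/- mice. The genotypes did not overlap in either state. A ratio within a library is not changed by how libraries are scaled to each other, and it was not tested here.

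**Figure D2:**
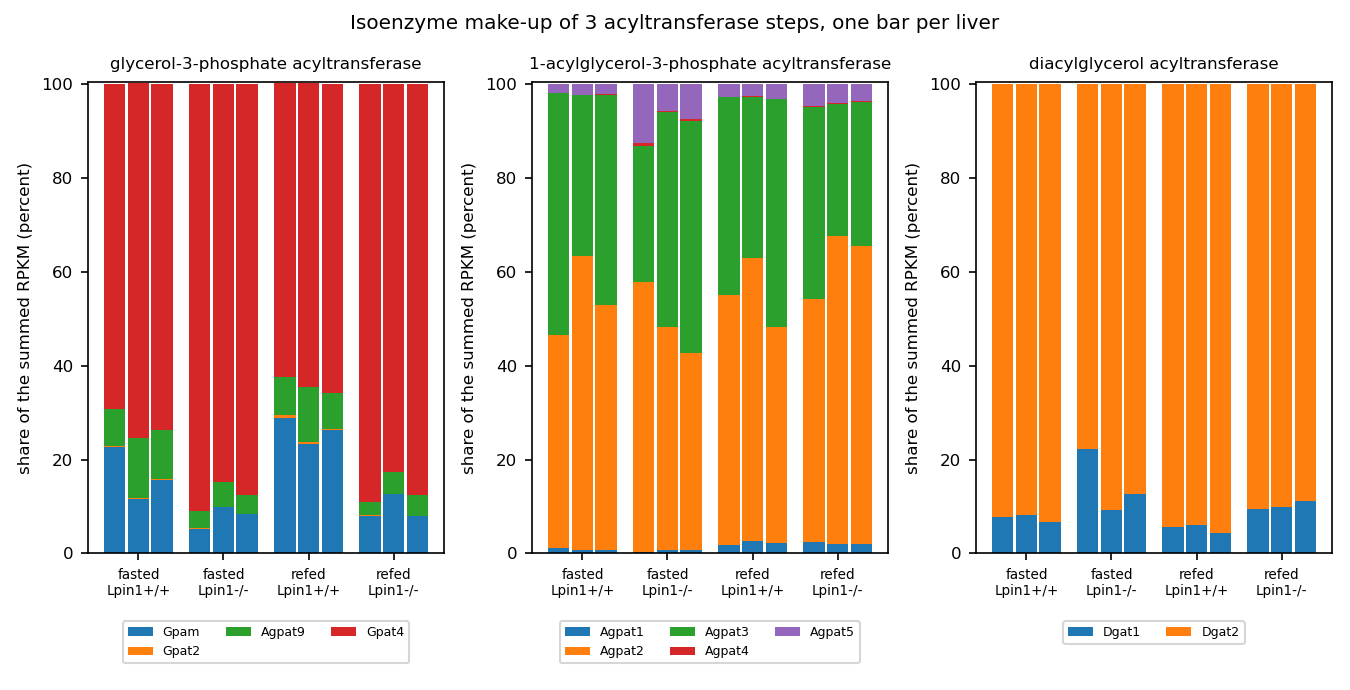
Share of each isoenzyme in the summed RPKM of its step (percent, from 0 to 100), with 1 bar per liver and 3 livers per group. Gpam holds 5.23% to 12.6% of the first acylation step in Lpin1-/- and 11.5% to 28.9% in Lpin1+/+ liver, and Dgat1 holds a larger share of the last step in Lpin1-/- liver of either state.

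The counts of members called are given beside those of all genes. In fasted liver 3 of 8 tested members were lower in Lpin1-/- mice (Gpd1, Agpat2 and Agpat3) and 0 were higher, where 13.2% of all genes tested were lower, 5.63% were higher and 18.8% were called in either direction. The median difference was -0.45 for the members and -0.14 for all genes tested. In refed liver 1 of 8 was called, Dgat1, which was higher, where 6.67% of all genes were called, 2.6% higher and 4.07% lower. The medians were -0.14 and -0.07. Refeeding raised 2 of 8 members in Lpin1-/- liver, Gpd1 and Agpat2, where 20.7% of all genes were called, and 17.8% rose and 2.92% fell. In Lpin1+/+ liver 0 of 8 were called by limma, where 1.72% of all genes were (1.52% higher and 0.2% lower), and 1 (Lpcat3) had an unadjusted p under 0.05. The interaction was called for 1 of 8, Gpd1, where 1.28% of all genes were, 0.791% higher and 0.487% lower. The share of members called was close to that of all genes for feeding in Lpin1-/- liver. Groups did not overlap for 4 of 8 members between genotypes in fasted liver and for 3 of 8 in refed liver, where this held for 32.9% and 33.9% of all genes tested. The same count was 4 of 8 for feeding in Lpin1-/- and 1 of 8 for feeding in Lpin1+/+ liver, beside 46.8% and 18.1% of all genes. The fasted Lpin1-/- libraries enter both the genotype comparison in fasted liver and the feeding comparison in Lpin1-/- liver, so these are not independent.

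**Figure D3:**
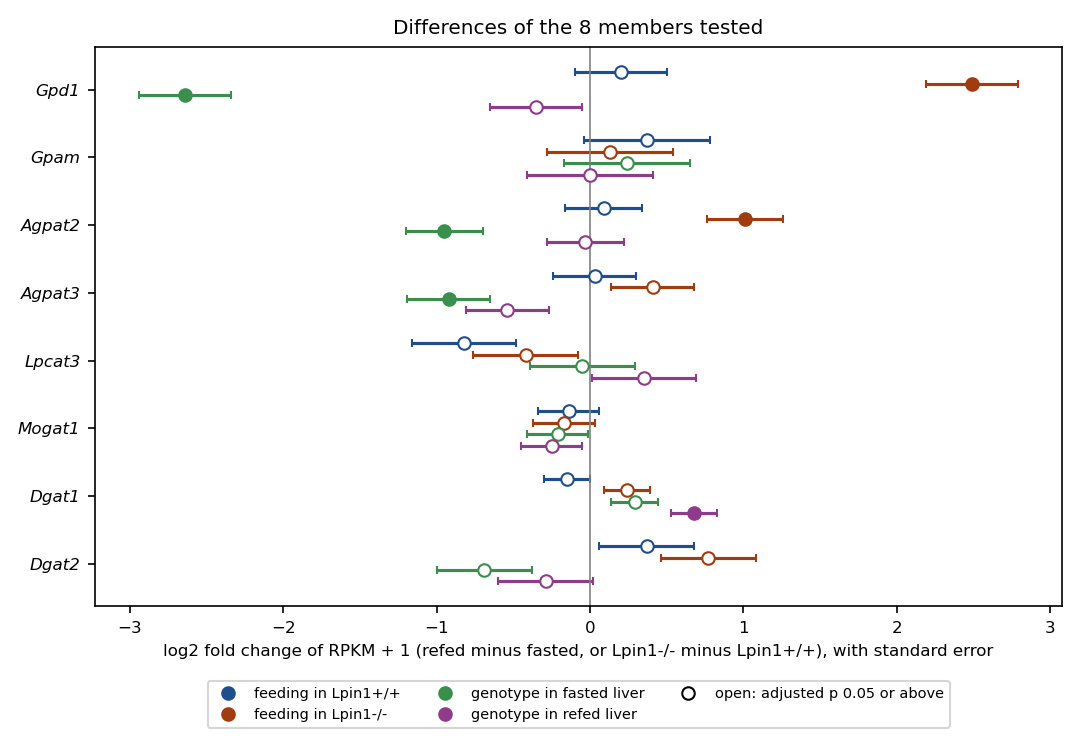
Log2 difference of RPKM + 1 (x axis) for the 8 members tested in 4 comparisons (colors), as refed minus fasted or Lpin1-/- minus Lpin1+/+. Bars are standard errors, and filled points passed a limma adjusted p of 0.05. Gpd1 has the largest values, -2.64 and 2.49, and Gpam, Lpcat3, Mogat1 and Dgat2 have no filled point.

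Of 30 other genes of glycerolipid metabolism, 27 were tested. In fasted Lpin1-/- liver 7 were lower and 4 higher (11 of 27, beside 18.8% of all genes). Gk, glycerol kinase, which makes glycerol-3-phosphate from glycerol, was at 40.6, 31.3 and 36.2 RPKM in Lpin1+/+ and at 10.1, 9.24 and 11.1 RPKM in Lpin1-/- fasted liver (-1.73, SE 0.15, limma adjusted p = 0.000170). Aqp9, the glycerol channel of hepatocytes, differed by -1.94 (SE 0.29, limma adjusted p = 0.00154), and Gpd2, the mitochondrial dehydrogenase that oxidizes glycerol-3-phosphate, by -1.22 (SE 0.27, limma adjusted p = 0.0111). Gpd1l, a cytosolic relative of Gpd1, was at 15.1, 7.55 and 11.6 RPKM in Lpin1+/+ and at 6.54, 13.8 and 10.3 RPKM in Lpin1-/- fasted liver, with overlap (-0.15, SE 0.31, limma adjusted p = 0.769). The groups of Gk, Aqp9 and Gpd2 did not overlap. On refeeding Gk, Aqp9 and Gpd2 rose in Lpin1-/- liver, by 1.10, 1.23 and 1.17. In Lpin1+/+ liver the feeding differences were -0.65 for Gk (SE 0.15, limma adjusted p = 0.0657), -0.58 for Aqp9 and -0.13 for Gpd2, none past the threshold. Refed livers were at 23.7, 20.3 and 23.8 RPKM of Gk in Lpin1+/+ and at 23.4, 22.5 and 22.5 RPKM in Lpin1-/- mice, all below the fasted Lpin1+/+ livers. The genotype differences of Gk, Aqp9 and Gpd2 in refed liver were 0.02, -0.13 and 0.07. The interaction was 1.75 for Gk (SE 0.22, limma adjusted p = 0.00664), 1.81 for Aqp9 (SE 0.41, limma adjusted p = 0.0615) and 1.29 for Gpd2 (SE 0.39, limma adjusted p = 0.124).

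The other lower genes of that list in fasted liver were Acsl1 (-1.80), which activates fatty acids, the lipid phosphatase Plpp3 (-1.83), Agpat1 (-0.87) and Bscl2 (-0.72), which encodes seipin. The higher ones were Gpat4, Agpat5, the lipid phosphatase Plpp1 (1.20) and the acyl-CoA synthetase Acsl3 (1.04). The call of Agpat1 was lost under 8 of 19 alternatives (limma adjusted p of up to 0.111) and that of Acsl1 under 4 of 19 (up to 0.0743). Lpin2 and Lpin3, the other lipins, differed by 1.03 (SE 0.45) and 0.10 (SE 0.19) in fasted liver and did not pass the threshold. In refed liver 3 of 27 passed it, Gpat4 (1.88), Bscl2 (-1.03) and Acsl3 (-1.23), beside 6.67% of all genes. Refeeding raised 5 of 27 in Lpin1-/- liver, close to the 17.8% of all genes, and lowered Lpin2 (-1.62) and Acsl3 (-1.42). The calls of Plpp3 and Lpin2 were lost under 8 and 5 of 19 alternatives. In Lpin1+/+ liver refeeding raised 1 of 27, Agpat1 (1.18, SE 0.25, limma adjusted p = 0.0384), a call lost under 16 of 19 alternatives. Agpat1 was also among the genes raised in Lpin1-/- liver, by 1.82 (SE 0.25, limma adjusted p = 0.00111), a call kept under all 19 alternatives. Its interaction was 0.64 (SE 0.35, limma adjusted p = 0.370). The interaction of Acsl3 was -2.26 (SE 0.28, limma adjusted p = 0.00664).

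**Figure D4:**
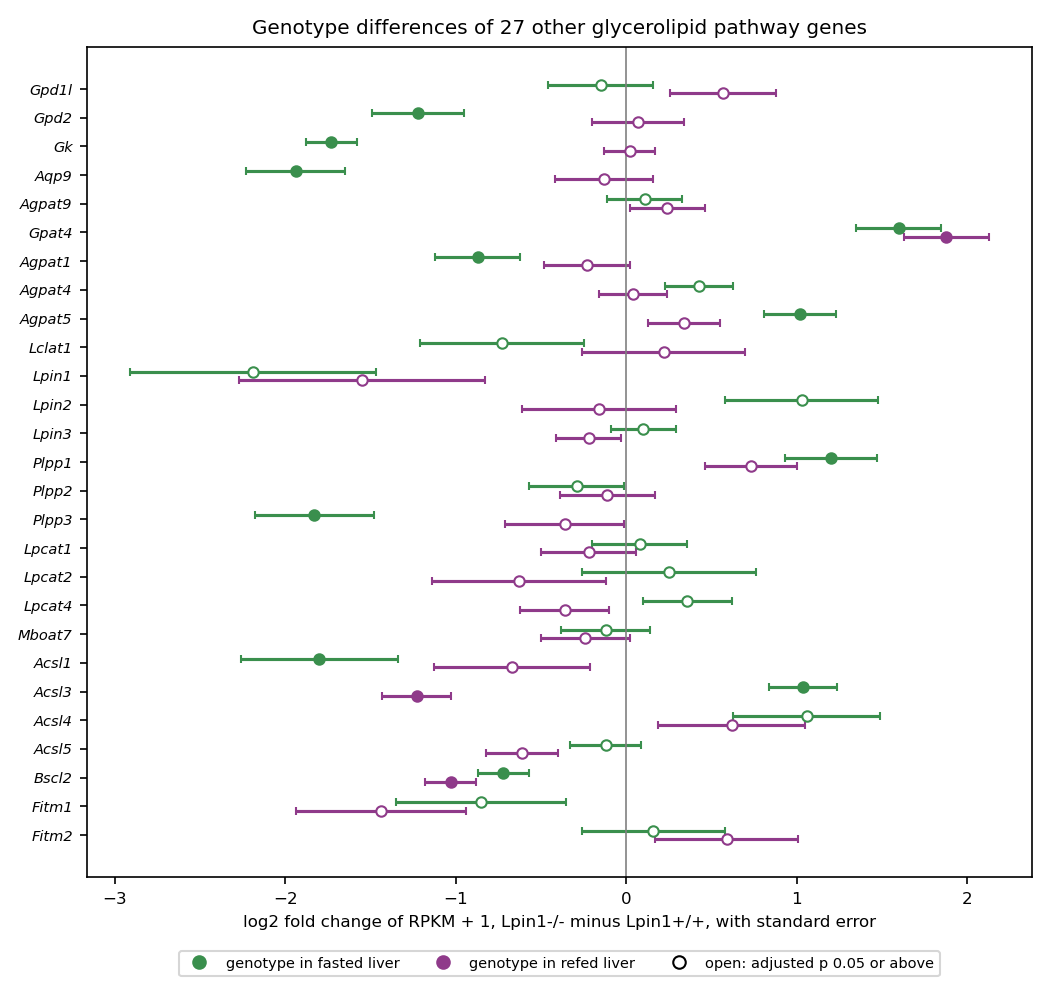
Log2 difference of RPKM + 1 between Lpin1-/- and Lpin1+/+ liver (x axis) for the 27 tested genes of glycerolipid metabolism that are not members, Lpin1 included, in fasted and refed mice. Bars are standard errors, and filled points passed a limma adjusted p of 0.05. Gk, Aqp9, Gpd2 and Plpp3 have a filled point in fasted liver on the negative side and an open one in refed liver, while Gpat4 (1.6 and 1.88) and Bscl2 (-0.72 and -1.03) have filled points in both. Acsl3 also has filled points in both, on opposite sides (1.04 in fasted and -1.23 in refed liver).

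Of 18 genes for transcription factors that act on triglyceride synthesis and their partners, 4 passed the threshold for genotype in fasted liver and 4 in refed liver, beside 18.8% and 6.67% of all genes. The share in fasted liver was close to that of all genes. In fasted Lpin1-/- liver Nr1h3, which encodes liver X receptor alpha, was lower (-0.86, SE 0.25, limma adjusted p = 0.0364), as was Pparg (-0.83, SE 0.20, limma adjusted p = 0.0157). Ppargc1b was higher (1.30, SE 0.33, limma adjusted p = 0.0200). These calls were lost under 10 of 19 alternatives for Nr1h3 (limma adjusted p of up to 0.177), 2 of 18 for Pparg and 6 of 18 for Ppargc1b. Insig1, which holds SREBP in the endoplasmic reticulum and is itself an SREBP target, was higher in fasted Lpin1-/- liver (2.07, SE 0.38, limma adjusted p = 0.00382) and lower in refed Lpin1-/- liver (-2.74, SE 0.38, limma adjusted p = 0.00260). In refed liver Srebf2 (-1.33) and Nr0b2 (-1.16) were also lower and Insig2 (1.95) was higher, calls lost under 3, 12 and 7 of 19 alternatives, with a limma adjusted p of up to 0.0698, 0.156 and 0.11. The calls of Insig1 were lost under none of the alternatives run. Srebf1, for SREBP-1, was at 12.7, 12.9 and 14.1 RPKM in fasted Lpin1+/+ and at 29.5, 48.2 and 11.4 RPKM in fasted Lpin1-/- liver, with a difference of 0.90 that did not pass the threshold. Refeeding in Lpin1-/- liver raised Mlxipl (1.43, SE 0.34, limma adjusted p = 0.0138), which encodes ChREBP, and its partner Mlx (1.26, SE 0.23, limma adjusted p = 0.00432), and lowered Insig1 (-3.21) and Ppargc1b (-1.56), where 20.7% of all genes were called. Of these, Mlxipl was lost under 2 and Mlx under 1 of 19 alternatives. In Lpin1+/+ liver 0 of 18 were called by limma, with 6 at an unadjusted p under 0.05.

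The genes whose pattern over the 12 livers was most like that of a member are given as a description, since the points share group, library and scaling. For Gpd1 they were Paqr9 (Pearson r = 0.988) and Acnat1 (r = 0.984), for Agpat2 A230050P20Rik (r = 0.973) and Vezt (r = 0.953), and for Agpat3 Pik3r2 (r = 0.977) and Stradb (r = 0.976). Paqr9 had means of 97.5 and 6.6 RPKM in fasted Lpin1+/+ and Lpin1-/- liver and of 117 and 68.7 RPKM in refed liver. For Dgat1 they were Tg (r = 0.947) and Ubac1 (r = 0.927), for Dgat2 Nat6 (r = 0.960) and Rab2a (r = 0.955), for Gpam Rcbtb1 (r = 0.964) and Sp2 (r = 0.933), for Lpcat3 Calcoco1 (r = 0.887) and Hdac5 (r = 0.881), and for Mogat1 Zap70 (r = 0.890) and Auh (r = 0.877). Between members r ranged from -0.56 for Agpat3 and Dgat1 to 0.87 for Agpat2 and Gpd1.

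Skipped exon (SE) events of the members were compared between genotypes in each feeding state. The events came with a count of reads that include the exon, on its body or its junctions, and a count of reads that skip it, for 3 libraries of each group listed without replicate numbers. Inclusion levels are percentages after division by the length of each form. limma was run on the log2 ratio of inclusion to skipping for events with at least 10 counts in each of the 6 libraries. In fasted liver 131 events of members were listed and 115 tested, and 25 were called, where 10.8% of 69644 events were. They lay in 20 exons as listed, many of them overlapping, and 14 were in Gpd1. In refed liver 2 of 107 tested events were called, where 1.03% of 65231 were, and with at least 5 reads of the rarer form on average 2 of 21, where 7.09% were. Leaving out 1 library moved the count in fasted liver to between 3 and 30 and that in refed liver to 0 each time. Mogat2 had no event.

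Most calls of Gpd1 rest on few skipping reads. The event with annotated flanks is its 178-base exon 2 (chr15:99718152-99718329, coding, in the first Gpd1 transcript of GENCODE M21). Skipping reads numbered 0, 0 and 0 beside 6024, 4073 and 7414 inclusion reads in fasted Lpin1+/+, and 18, 22 and 0 beside 557, 894 and 868 in fasted Lpin1-/- liver. Inclusion was 100% in Lpin1+/+ and 89.5%, 91.8% and 100% in Lpin1-/- liver, so 1 of the 3 Lpin1-/- libraries had the Lpin1+/+ level. The log2 ratio differed by -6.47 (SE 1.30, limma adjusted p = 0.00859). The lower number of Gpd1 reads in Lpin1-/- liver enters this ratio where no skipping read was seen. This and 5 other Gpd1 calls share the same skipping reads, and in the remaining 8 the mean of the skipping counts over the 6 libraries was at most 1.33 reads. With 1 library left out the exon was called in 3 of 6 fits, with a limma adjusted p of up to 0.0737. In refed liver inclusion of the exon was 99.9% in Lpin1-/- mice (limma adjusted p = 0.941).

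The exon is shown because it has the most skipping reads among the annotated Gpd1 exons with a called event. Beside it is exon 4 of Gpam, the coding exon called in refed liver. Capitals mark the exon, and the 15 lower-case bases on each side belong to the neighboring exons of the transcript (GENCODE M21, GRCm38, mRNA strand).
Gpd1 exon 2: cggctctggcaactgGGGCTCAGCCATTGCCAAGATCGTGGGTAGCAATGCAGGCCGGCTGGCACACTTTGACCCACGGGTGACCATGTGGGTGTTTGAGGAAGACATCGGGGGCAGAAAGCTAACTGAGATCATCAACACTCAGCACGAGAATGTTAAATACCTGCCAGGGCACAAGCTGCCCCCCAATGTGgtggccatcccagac
Gpam exon 4: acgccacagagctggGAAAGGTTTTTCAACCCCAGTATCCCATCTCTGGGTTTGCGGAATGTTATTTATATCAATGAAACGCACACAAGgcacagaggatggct
Neither length, 178 or 74 bases, is a multiple of 3.

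Exon 4 of Gpam (chr19:55093919-55093992) had skipping reads of 1, 0 and 0 in refed Lpin1+/+ and of 15, 13 and 13 in refed Lpin1-/- liver. Inclusion was 99.1%, 100% and 100% in Lpin1+/+ and 91.2%, 91.4% and 82.9% in Lpin1-/- liver, without overlap (log2 ratio -4.28, SE 0.71, limma adjusted p = 0.0274), and the call was lost without any 1 of the 6 libraries (limma adjusted p of 0.0788 to 0.126). These skipping reads join a flanking segment of intron 3 that is no exon in the annotation. With the annotated exons on both sides, inclusion was 99.4% in Lpin1+/+ and 99.2% in Lpin1-/- liver (limma adjusted p = 0.988).

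Among events in which the rarer form had at least 5 reads on average, a minimum chosen after the data were seen, 13 of 24 in fasted liver were called, where 33.2% of 18096 events were, and 6 of these 13 were the Gpd1 events above. A further 6 lay in introns of Agpat2, Agpat3 and Dgat2, at segments that are no exon in GENCODE M21, with more inclusion in Lpin1-/- liver each time. Each of these genes had 2 such segments, which overlap each other, so the events of a gene are not independent. The last of the 13 was an exon of Lpcat3. In intron 3 of Agpat3, a 241-base segment (chr10:78285849-78286089) had inclusion levels of 0.495%, 0.371% and 0.102% in Lpin1+/+ and of 4.6%, 2.98% and 2.80% in Lpin1-/- fasted liver (log2 ratio 3.67, SE 0.80, limma adjusted p = 0.0132). In intron 1 of Dgat2, a 183-base segment (chr7:99172414-99172596) had levels of 0.0852%, 0.0928% and 0.0562% in Lpin1+/+ and of 0.770%, 1.22% and 0.722% in Lpin1-/- liver (3.44, SE 0.71, limma adjusted p = 0.0101). In intron 5 of Agpat2, a 208-base segment (chr2:26594211-26594418) had levels of 0.242%, 0.201% and 0.134% in Lpin1+/+ and of 1.19%, 1.12% and 0.853% in Lpin1-/- liver (2.48, SE 0.71, limma adjusted p = 0.0439). The genotypes did not overlap in these 3 segments. Reads that lie within a segment count as inclusion, so reads of unspliced RNA are in these levels, and their part was not tested. In refed liver the Dgat2 segment was at 0.0306% in Lpin1+/+ and 0.0749% in Lpin1-/- mice (limma adjusted p = 0.534). The 214-base segment that overlaps the one in Agpat2 had a limma adjusted p of 0.0534 over all events of fasted liver. With 1 library left out, as few as 3 member events were called in fasted liver, against 25 with all libraries.

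**Figure D5:**
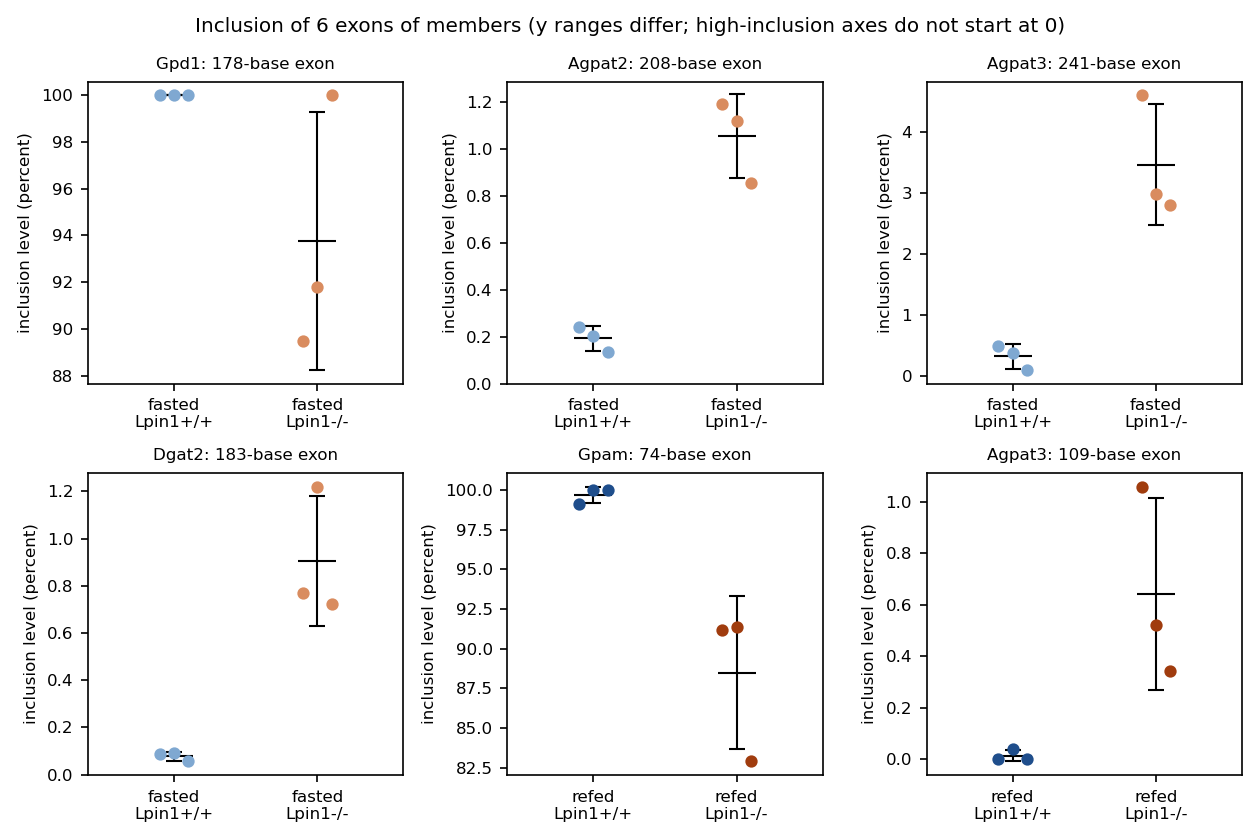
Inclusion level (percent, on y axes of different range, which do not start at 0 for the Gpd1 and Gpam exons) of 6 exons or intron segments of members in the 3 libraries of each genotype. Points are libraries, bars are means and error bars are SD. The segments of Agpat2, Agpat3 and Dgat2 are included more in fasted Lpin1-/- liver, at levels of up to 4.6%, and exon 4 of Gpam is included less in refed Lpin1-/- liver with an unannotated flank.

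The other events called were few in reads. In intron 2 of Agpat3, a 109-base segment (chr10:78304492-78304600) had 0, 1 and 0 inclusion reads in refed Lpin1+/+ and 24, 10 and 6 in refed Lpin1-/- liver (4.56, SE 0.74, limma adjusted p = 0.0256, and 0.0577 to 0.13 with 1 library left out). Exon 7 of Dgat2 (chr7:99156977-99157179) had 0 skipping reads in fasted Lpin1+/+ and 10, 18 and 1 in fasted Lpin1-/- liver, with inclusion of 99.3% or more throughout (limma adjusted p = 0.0134). In Mogat1 an exon of 188 bases had 3, 5 and 2 skipping reads in fasted Lpin1+/+ and 0 in each fasted Lpin1-/- liver (limma adjusted p = 0.0314), and in Dgat1 an exon of 21 bases had 0 in Lpin1+/+ and 1, 2 and 2 in Lpin1-/- liver (limma adjusted p = 0.0372). For Lpcat3 the event with the most reads of the rarer form, an exon of 107 bases, was included at 98.9% in Lpin1+/+ and 96.3% in Lpin1-/- fasted liver, which did not pass the threshold over all events (limma adjusted p = 0.157, and 0.0342 among events with at least 5 reads of the rarer form). Among events with abundant reads of both forms, an 85-base exon of Agpat3 (chr10:78351627-78351711) was included at 79.8% ± 2.47 in Lpin1+/+ and 74.0% ± 8.01 in Lpin1-/- fasted liver (SD, n = 3 each, limma adjusted p = 0.743).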

How the data were processed

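RNA-Seq (paired-end reads) was carried out on 12 mouse livers. The authors used HISAT2 2.0.5 with the GRCm38 genome and HTSeq 0.6.0 for read counts, and deposited RPKM for 22456 genes. DESeq2 1.20.0 is also named in the submitters' notes. The deposited SE tables hold inclusion and skipping counts from rMATS (version not given in the sources used here) as lists of 3 libraries. The group of each list was read from a further table in which 1523 fasted and 1719 refed Lpin1+/+ events had the same counts. The authors' p-values, FDR and inclusion levels were not used.

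The per-gene values used were RPKM and not counts, so limma 3.58.1 (R 4.3.3, trend in the variance) was fitted to log2(RPKM + 1) of 11507 genes over 12 libraries. Events were fitted on the log2 length-normalized ratio, with 0.5 added to each count, over 6 libraries. The rule for members uses gene symbols and no values, but members, gene lists and comparisons were proposed with earlier results of these data known. Named genes are the members, genes of the lists, and the 2 genes most like each member. Named events are those with most reads of the rarer form and those called. The p-values rest on the spread between mice within groups of 3, pooled over the groups of a fit and moderated by limma across genes or events. In simulated data for feeding in Lpin1+/+ liver (11507 genes), 41 of 84 genes changed by 1 and 102 of 116 changed by 2 (log2) were recovered, with 8 false calls. Of 69644 simulated fasted events, 0 of 200 changed 8-fold were recovered, and 1584 of 5000 with 86 false calls. Reads are not independent molecules, and levels of inclusion have no counting interval here. Positions are of GENCODE M21. Sequences of intron segments were not used here. Alternatives were another pseudocount, filter, scaling, event minimum or weighting, the replicate block, a fit of the 2 groups in question alone, and the omission of single libraries. Leaving out the 2 libraries with high macrophage markers, and the minimum for the rarer form, were chosen after seeing the data. Figures were drawn with matplotlib 3.10.9 in Python 3.11.15.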

Additional observations from a re-analysis of the deposited data

Results flagged for a closer look

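The difference that refeeding made to Gpd1 was larger in Lpin1-/- than in Lpin1+/+ liver by 2.29 on the log2 scale (SE 0.42, limma adjusted p = 0.0316), and this test of the difference itself put Gpd1 here. Refeeding raised Gpd1 in Lpin1-/- liver by 2.49, with no overlap of the groups, and the difference was 0.20 in Lpin1+/+ liver. No other member differed between genotypes in this way past the threshold. The call was lost when any 1 of 7 libraries was left out, while the value stayed between 2.06 and 2.45 there.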

How the results depend on the processing

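The calls of Gpd1 for genotype in fasted liver and for feeding in Lpin1-/- liver kept their direction and side of the threshold under all 19 alternatives. With 1 library left out, the number of members called was 0 throughout for feeding in Lpin1+/+ liver, 1 to 3 for feeding in Lpin1-/- liver, 1 to 3 for genotype in fasted liver, 0 to 1 for genotype in refed liver and 0 to 1 for the interaction, and the number of member exon events called was 3 to 30 in fasted and 0 to 0 in refed liver, against 25 and 2. Precision weights gave 12 and 0 events, and a mean of at least 5 reads of the rarer form gave 13 in fasted liver. Rescaling by the median ratio left 1 member called for feeding in Lpin1-/- liver, and it moved the median of all genes from 0.19 to 0.02 for feeding in Lpin1+/+ and from 0.25 to -0.03 for feeding in Lpin1-/- liver. The interaction was called for 0 members without a filter on low values or without the 2 libraries with high macrophage markers, an alternative chosen after seeing the data. Rescaling by the median ratio brings the medians of all genes near 0 by construction. The cause of the other moves was not tested. Same-numbered libraries were not paired: of 18 such pairs 8 correlated above 0.1 (r from -0.474 to 0.743), and 13 of 36 best matches had the same number. With the replicate block the interaction was called for 0 members, Gpd1 being lost, and Agpat3 was no longer called for genotype in fasted liver.

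Differences that changed sign were all short of the threshold. Rescaling gave -0.02 for Gpd1, -0.13 for Agpat2 and -0.19 for Agpat3 (feeding in Lpin1+/+), -0.22 for Gpam and -0.11 for Dgat1 (feeding in Lpin1-/-), 0.16 for Lpcat3 (genotype, fasted), and 0.05 for Gpam and 0.03 for Agpat2 (genotype, refed). Without the 2 libraries with high macrophage markers the values were -0.04 for Agpat2 and 0.04 for Mogat1 (feeding in Lpin1+/+), -0.28 for Gpam (feeding in Lpin1-/-), 0.32 for Lpcat3 (genotype, fasted), 0.10 for Agpat2 (genotype, refed), and -0.03 for Agpat3 and -0.07 for Dgat2 (interaction). With 1 library left out, Gpam ranged from -0.28 to 0.38 (feeding in Lpin1-/-), -0.13 to 0.66 (genotype, fasted), -0.16 to 0.24 (genotype, refed) and -0.66 to 0.13 (interaction). Agpat2 ranged from -0.04 to 0.31 (feeding in Lpin1+/+) and -0.25 to 0.21 (genotype, refed), Agpat3 from -0.17 to 0.20 (feeding in Lpin1+/+), Lpcat3 from -0.35 to 0.32 (genotype, fasted), and Mogat1 from -0.29 to 0.04 (feeding in Lpin1+/+) and -0.21 to 0.12 (interaction).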
